A study of Mus with 5 samples.

Results

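*Cxcl12* and the genes of its receptors *Cxcr4* and *Ackr3* were examined in E14.5 mouse hearts that overexpress *Bmp2* in the myocardium. The members were chosen by Ensembl identifier, and all 3 were present among the 12857 genes with deposited values. WT hearts were compared with Nkx2.5CRE;Bmp2 hearts, written as *Nkx2.5 Cre/+;Bmp2 tg/+* in the study and called transgenic here. The *Nkx2.5* locus, active in cardiac progenitors, supplies Cre in these embryos and thereby excises a floxed stop cassette, after which the CAG promoter in the *Rosa26* locus drives *Bmp2* and GFP. The transgenic line was derived from 1 embryonic stem cell clone. The ventricles and valves of 4 embryos, without atria, were combined in each pool, and 3 transgenic and 2 WT pools were analysed. The authors excluded a further WT pool because it did not cluster with the others, and it was not analysed here. As labelled, the genotypes differ in the Cre allele as well as the transgene, whose effects cannot be told apart. Whether the WT pools lack the allele was not tested, since the study describes a cross with homozygous Cre mothers.

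CXCL12 is a chemokine, a small secreted protein that guides migrating cells along its gradient. CXCR4 is the receptor that turns binding into a signal through inhibitory G proteins. ACKR3, formerly CXCR7, binds the same ligand without classical G protein signalling, recruits arrestin and removes the ligand from the extracellular space. In the embryonic heart the axis is known for its part in coronary vessel growth, including the maturation of coronary arteries and their connection to the aorta. ACKR3 is also known for its role in semilunar valve formation. Coronary endothelium, epicardium, mesenchyme and myocardium all contribute to the axis, so that its transcripts in whole ventricles do not come from a single cell type. In such bulk samples, fewer cells of a type and less RNA per cell cannot be told apart.

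The ligand transcript was lower in transgenic hearts, the scavenging receptor showed a smaller difference that narrowly missed the test, and the signalling receptor showed no detectable difference. On the log2 scale the differences were -0.58 for *Cxcl12*, -0.30 for *Ackr3* and 0.04 for *Cxcr4*. Only *Cxcl12*, 1 of the 3 members, had an adjusted p at or under 0.05. Among all genes the same test called 1.59% as lower in transgenic hearts and 2.82% in either direction.

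Values are counts per 1000000 reads (CPM), relative to the authors' scaled library size. Each value was a whole multiple of the worth of 1 read, and 7427905 to 10564780 reads were recovered per pool. Bars and intervals given for a single pool are 95% Poisson intervals on those reads and reflect counting error alone, because PCR duplicates are hidden in such values. *Bmp2*, the gene of the transgene, was at 23.0, 27.1 and 23.3 CPM in transgenic pools 1, 2 and 3 and at 14.1 and 10.2 CPM in WT pools 1 and 2. Every transgenic pool was thus above both WT pools for this gene. Of the 10 cardiomyocyte markers considered, 2 could be matched to identifiers, through the study's own list of genes changed in these libraries. Their change is therefore not independent evidence. Both were detected in every pool. *Myl7*, the atrial myosin light chain, was at 384 and 373 CPM in WT and at 653, 869 and 617 CPM in transgenic pools 1, 2 and 3, highest in pool 2. Its log2 fold change was 0.90 (limma adjusted p = 0.000166), although the atria had been removed, and its part in the differences below was not tested. *Ryr2*, the calcium release channel of the sarcoplasmic reticulum, was at 548 and 556 CPM in WT and at 480, 425 and 459 CPM in transgenic pools, a log2 fold change of -0.28 (limma adjusted p = 0.0175). The other 8 were not analysed here.

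*Cxcl12* (ENSMUSG00000061353) lies on chromosome 6 of GRCm38, from 117168535 to 117181368, and encodes the ligand. RefSeq lists 3 curated transcripts of the gene. The deposited values are per gene, quantified by the authors over Ensembl's gene models, so transcripts are not told apart. Its level was 188 CPM in WT pool 1 and 187 CPM in WT pool 2. In the transgenic pools it was 130 CPM in pool 1, 108 CPM in pool 2 and 141 CPM in pool 3. Every transgenic pool was below both WT pools, and pool 2 was the lowest. Of all genes, 35.7% had groups that did not overlap in either direction, and 18.0% had every transgenic pool below both WT pools. The WT mean of 187.7 ± 1.001 CPM (SD, n = 2 pools) compared with a transgenic mean of 126.5 ± 16.6 CPM (SD, n = 3 pools). The log2 fold change was -0.58 with a standard error of 0.08 (limma adjusted p = 0.00132, n = 3 and 2). This corresponds to 32.9% less transcript, with a 95% interval from 24.1% to 40.7% less. *Cxcl12* was among the 152 genes (1.18%) with the lowest log2 fold changes.

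**Figure D1:**
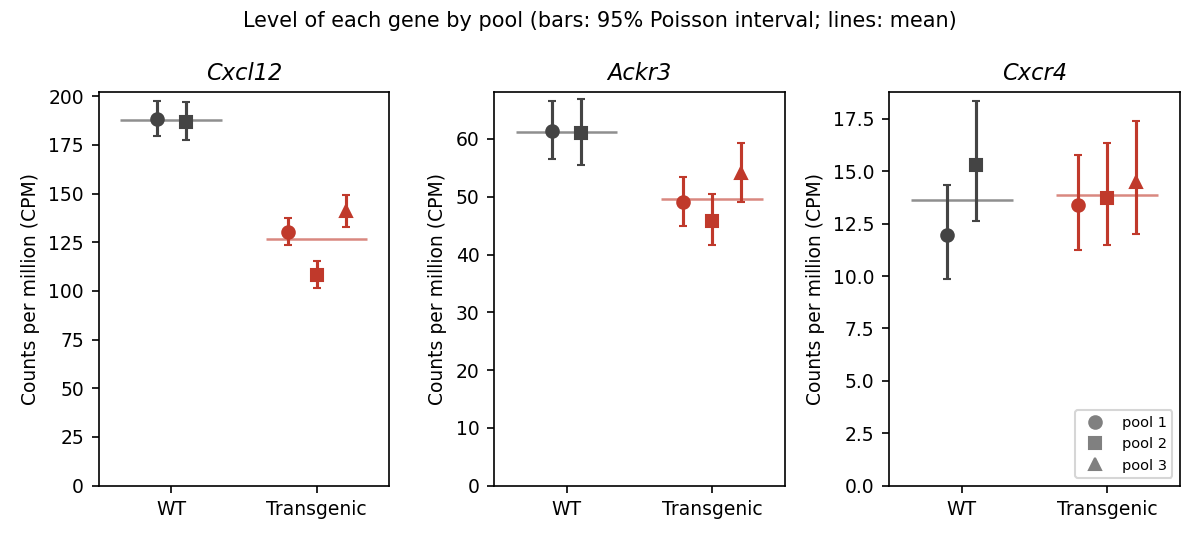
Level of *Cxcl12*, *Ackr3* and *Cxcr4* in CPM in each of the 2 WT and 3 transgenic pools. Points are pools, vertical bars are 95% Poisson intervals on the reads and horizontal lines are group means. The groups are apart for *Cxcl12* and *Ackr3*, whereas for *Cxcr4* the transgenic pools lie between the WT pools.

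WT pools 1 and 2 held 1782 and 1395 reads of *Cxcl12*, and transgenic pools 1, 2 and 3 held 1363, 1009 and 1127. Their 95% counting intervals were 180 to 197 CPM and 177 to 197 CPM in WT, and the highest transgenic upper bound was 149 CPM, in pool 3. Counting error was therefore small beside the gap between the genotypes. The transgenic pools varied by more than reads alone give, with a coefficient of variation of 13.1% against 2.95% from counting. The WT pools varied by 0.53%, less than the 2.53% that counting alone would give. Left out in turn, no transgenic pool ended the call, and the log2 fold change moved to -0.47 without pool 2 and to -0.66 without pool 3. With 1 WT pool left, the values stayed at -0.57 and -0.58 but were not called (limma adjusted p = 0.0911 without WT pool 1 and 0.0680 without WT pool 2). Over the 17 alternatives with limma, edgeR or DESeq2 the adjusted p ran from 3.02e-07 to 0.171.

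*Ackr3* (ENSMUSG00000044337) lies on chromosome 1, from 90203980 to 90215724, and encodes the scavenging receptor. Its level was 61.4 CPM in WT pool 1 and 61.0 CPM in WT pool 2. The transgenic pools were at 49.1, 45.8 and 54.0 CPM in pools 1, 2 and 3. As for the ligand, every transgenic pool was below both WT pools, pool 2 was the lowest and pool 3 the nearest to WT. Mean levels were 61.2 ± 0.310 CPM (SD, n = 2 WT pools) and 49.6 ± 4.12 CPM (SD, n = 3 transgenic pools). The log2 fold change was -0.30 with a standard error of 0.08, which corresponds to 18.9% less transcript with a 95% interval from 9.0% to 27.8% less. The unadjusted limma p was 0.00144, and the adjusted p of 0.0504 missed the threshold of 0.05. Of all genes, 17.7% had an unadjusted limma p under 0.05, a looser level than the p of *Ackr3*. An adjusted limma p at or under 0.05 was reached by 2.82%. In log2 fold change, 819 of the genes (6.37%), *Ackr3* included, were at or below this value.

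The reads of *Ackr3* were 581 and 455 in the WT pools and 513, 427 and 432 in the transgenic pools. The 95% counting intervals of WT pool 2 (55.5 to 66.9 CPM) and transgenic pool 3 (49.0 to 59.4 CPM) overlapped, so the nearest pools of the genotypes were not resolved by depth. The coefficient of variation between transgenic pools was 8.30%, against 4.69% from counting. The WT pools differed by 0.51%, again less than the 4.43% expected from counting. The study's own list of changed genes, made with edgeR, held *Cxcl12* but not *Ackr3* or *Cxcr4*. Here the adjusted p of *Ackr3* fell on either side of the threshold with the choice of test. It was 0.0428 with edgeR's exact test, which called 2.24% of all genes as lower, and 0.0974 with DESeq2, which called 2.04% of those it adjusted, and over the 17 alternatives with limma, edgeR or DESeq2 it ran from 0.0104 to 0.294. Without transgenic pool 2 the log2 fold change was -0.25 (limma adjusted p = 0.150), and without pool 3 it was -0.36 (limma adjusted p = 0.0188).

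*Cxcr4* (ENSMUSG00000045382) lies on the same chromosome, 38.4 Mb from *Ackr3*, from 128588199 to 128592299, and encodes the signalling receptor. Its level was 11.9 CPM in WT pool 1 and 15.3 CPM in WT pool 2. The transgenic pools were at 13.4, 13.7 and 14.51 CPM. All the transgenic values lay between the WT values, so the groups overlapped. Mean levels were 13.6 ± 2.36 CPM (SD, n = 2 WT pools) and 13.9 ± 0.571 CPM (SD, n = 3 transgenic pools). The log2 fold change of 0.04 had a standard error of 0.13 and a 95% interval from -0.24 to 0.32 (limma adjusted p = 0.921). The interval runs from 15.5% less to 24.5% more transcript, and changes within these bounds were not excluded. The measured falls of *Cxcl12* (32.9%) and *Ackr3* (18.9%) lie outside it. The interval of *Ackr3*, from 9.0% to 27.8% less, overlaps that of *Cxcr4*, and this fit did not compare the genes with each other.

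Only 113 and 114 reads of *Cxcr4* were recovered from the WT pools, and 140, 128 and 116 from the transgenic pools. The 95% counting intervals of the WT pools, 9.85 to 14.4 CPM and 12.6 to 18.4 CPM, overlapped each other. The interval of WT pool 2 held every transgenic value, and that of WT pool 1 held all but transgenic pool 3, at 14.51 CPM. The spread between the WT pools was 17.3%, against 9.39% from counting, and that between transgenic pools was 4.12%, less than the 8.86% from counting. The sign of the difference depended on which WT pool was kept. It was -0.13 without WT pool 1 and 0.21 without WT pool 2 on the log2 scale, and neither was called (limma adjusted p = 0.746 and 0.621, within 0.621 to 0.990 over 16 alternatives). Regional changes within the heart cannot be located in these pools of whole ventricles and valves. By in situ hybridisation the study reported lower expression of coronary vessel markers in transgenic embryos, *Cxcr4* among them. No such fall was measured in these pools, where the log2 fold change was 0.04, although its interval reaches 15.5% less transcript. The reason for this difference from the study was not tested.

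**Figure D2:**
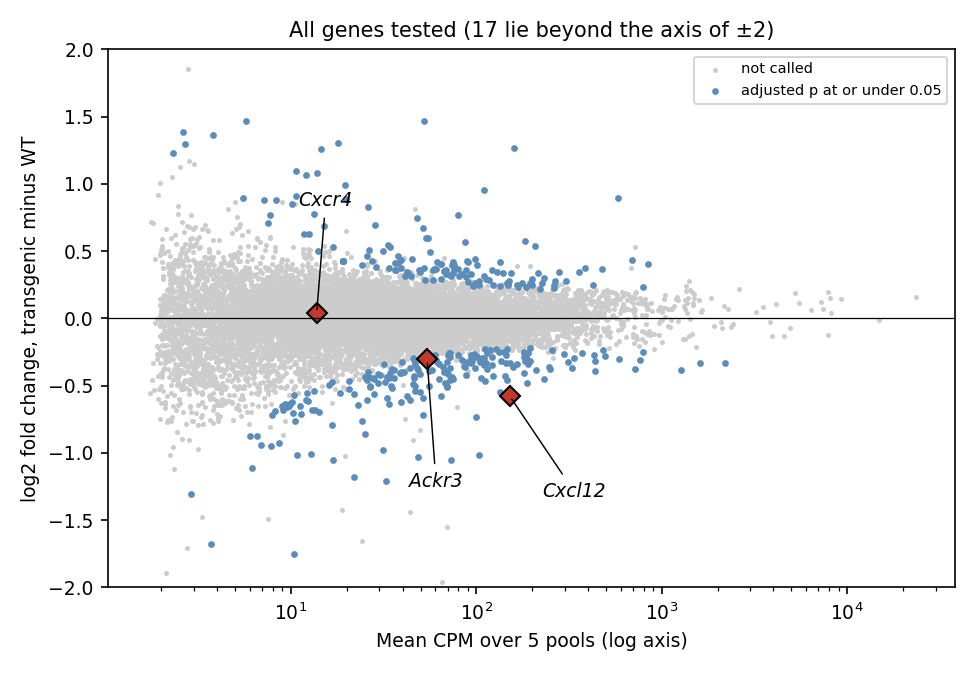
Mean level over 5 pools (CPM, log axis) against log2 fold change, transgenic minus WT, for each of the 12857 genes. Blue points are the 362 genes with a limma adjusted p at or under 0.05. *Cxcl12*, at -0.58, lies among the called genes that fell, *Ackr3*, at -0.30, was not called and lies beside called genes that fell, and *Cxcr4*, at 0.04, lies in the middle of the genes that were not called. The 17 genes beyond a log2 fold change of 2 in size are not drawn.

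Ligand and receptors were next set against each other within each library, where the scaling of the library cancels. Because CPM is not corrected for gene length, only the change of such a ratio between pools is read, not its size. The CPM of *Cxcl12* divided by that of *Ackr3* was 3.07 in both WT pools and 2.66, 2.36 and 2.61 in transgenic pools 1, 2 and 3. The CPM of *Cxcl12* divided by that of *Cxcr4* was 15.8 and 12.2 in the WT pools and 9.74, 7.88 and 9.72 in the transgenic pools. The CPM of *Ackr3* divided by that of *Cxcr4* was 5.14 and 3.99 in WT and 3.66, 3.34 and 3.72 in transgenic hearts. For each of the 3 ratios, of which the last follows from the others, every transgenic pool was below both WT pools. This held for 18.0% of single genes, and the share among ratios of genes was not computed. For *Ackr3* to *Cxcr4* the nearest pools, at 3.72 and 3.99, were closer than the counting error of *Cxcr4*, which was 8.86% in transgenic and 9.39% in WT pools. The log2 differences of the ratios were -0.27, -0.62 and -0.34 in that order. An exact permutation test gave a two-sided p of 0.2 for each, which is the smallest that 3 pools against 2 allow, so these differences cannot pass a threshold of 0.05.

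The profiles over the 5 pools were then compared across genes. For each gene, log2(CPM + 0.5) was centred on the mean of the gene, and likeness was the root mean square difference from a member over the 5 pools, among the 10090 genes with a mean of at least 10 CPM. Names were available for 373 of the genes compared, all of them from the study's list of changed genes, so that the named neighbours were picked from genes that differ between the genotypes. Between members the difference was 0.15 for *Cxcl12* and *Ackr3*, 0.21 for *Ackr3* and *Cxcr4* and 0.34 for *Cxcl12* and *Cxcr4*.

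The gene most like *Cxcl12*, named or not, was *Flt4*, at a difference of 0.042 log2 units. It encodes VEGFR3, the receptor of VEGF-C on lymphatic and sprouting endothelium. *Flt4* was at 43.6 and 41.8 CPM in WT and at 30.1, 26.4 and 32.6 CPM in transgenic pools 1, 2 and 3. *Sema7a*, which encodes a membrane-anchored semaphorin, and *Mgat5*, an enzyme that branches N-glycans, were the next named genes, at 0.052 and 0.059, ranking 2 and 4 among all genes compared. The named genes most like *Ackr3* were *Atp9a*, *Nynrin* and *Sema6d*, at 0.024, 0.024 and 0.026, and 2 genes without a name were closer still. *Sema6d*, which encodes a transmembrane semaphorin, was at 136.4 and 135.8 CPM in WT and at 111.5, 105.6 and 118.2 CPM in transgenic pools. For *Cxcr4* the named genes were not near, since 1578 genes without a name were closer than *Strap*, at 0.10, and *Fam134b* and *Fabp5* followed at 0.12 and 0.13.

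**Figure D3:**
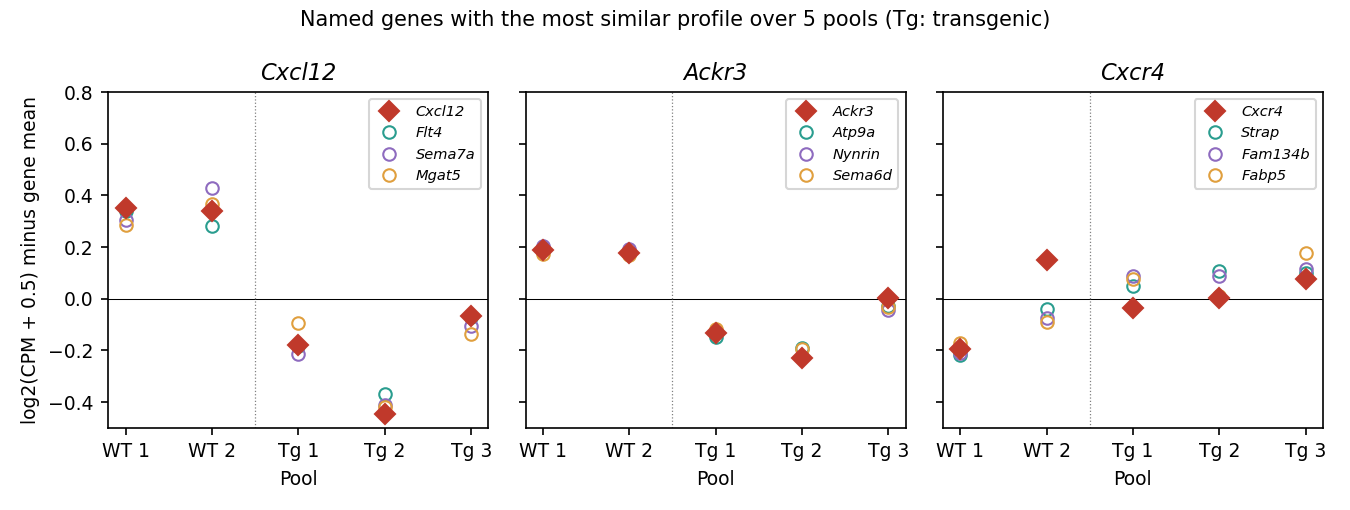
Centred log2(CPM + 0.5) in the WT and transgenic (Tg) pools for *Cxcl12*, *Ackr3* and *Cxcr4* (red diamonds) and, as circles, the 3 named genes with the smallest root mean square difference from each. *Cxcl12* and *Ackr3* and their neighbours are high in both WT pools and lowest in transgenic pool 2, while *Cxcr4* differs from its named neighbours most in WT pool 2.

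The cells in which the axis acts were described by marker genes, so far as identifiers could be paired with names. Of 190 genes in 13 lists, 27 could be paired, through the study's own list of genes changed in these libraries. Their direction is therefore not independent evidence, and no list reached the 80% of members needed for a count over the list. None of the other 21 chemokine receptors, of the 38 signalling partners of CXCL12 such as G proteins, arrestins and kinases, or of the endocardial, leukocyte and red cell markers could be paired. An unpaired gene was not on the study's list under the symbol used, or had no deposited value, and its change was not examined here. The changes given below thus leave out list members that the study did not report as changed.

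Of 16 endothelial markers, 6 were paired. The summed level of these 6 was 734 and 717 CPM in WT and 591, 505 and 595 CPM in transgenic pools 1, 2 and 3. It was lowest in the same pool as *Cxcl12* and *Ackr3*. All 6 came from the study's list of changed genes, so a gap between the genotypes in their sum follows from that choice. The sum does not stand for the other endothelial markers. *Kdr*, the main VEGF receptor of endothelium, changed by -0.46 on the log2 scale (limma adjusted p = 0.00286). *Plvap*, a protein of endothelial fenestrae, changed by -0.72 (limma adjusted p = 0.00109). *Aplnr*, the apelin receptor of coronary progenitors and veins, and *Tie1*, an endothelial receptor kinase, changed by -0.44 and -0.31. *Cdh5* and *Sox18* were at -0.25 and -0.41 without passing the threshold (limma adjusted p = 0.0563 and 0.0661).

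Among 10 coronary artery markers, 4 were paired. *Gja5*, the connexin of arteries and trabeculae, changed by -0.55 and *Notch1* by -0.35 (limma adjusted p = 0.00494 and 0.0104). *Notch4* was at -0.34 without passing (limma adjusted p = 0.0621). *Unc5b*, a netrin receptor of arterial endothelium, rose by 0.34 (limma adjusted p = 0.0225). Among 9 markers of mural cells, the pericytes and smooth muscle cells around vessels, 4 were paired. *Myh11*, the smooth muscle myosin, changed by -0.71, *Rgs5* by -0.48 and *Abcc9* by -0.41, while *Pdgfrb*, at -0.24, did not pass (limma adjusted p = 0.0519). The summed level of these 4 was 395 and 403 CPM in WT and 302, 285 and 327 CPM in transgenic pools. This sum too was taken only over genes listed for their change and does not stand for the other mural markers. The only paired epicardial marker of 7, *Tbx18*, rose by 0.37 (limma adjusted p = 0.00476). The part of endothelial, mural and epicardial transcripts in the *Cxcl12* difference was not tested.

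Another chemokine went the other way. *Cx3cl1*, the membrane-bound chemokine fractalkine and the only paired ligand of 35, was at 12.3 and 14.2 CPM in WT and at 18.1, 21.8 and 18.1 CPM in transgenic pools, highest in pool 2. Its log2 fold change was 0.53 with a standard error of 0.12 (limma adjusted p = 0.0294). Hypoxia is a known inducer of both *Cxcl12* and *Cxcr4*, and 3 of 14 genes of oxygen sensing were paired. *Epas1*, which encodes the hypoxia-inducible factor HIF-2α of endothelium, changed by -0.32 (limma adjusted p = 0.0242). *Egln1*, the prolyl hydroxylase that marks such factors for degradation, and *Slc2a1*, the glucose transporter GLUT1, rose by 0.27 and 0.26 (limma adjusted p = 0.0450 and 0.0415). Of 8 genes of the BMP response, *Bmp2* included, 6 were paired, again from genes listed for their change. The log2 fold changes of *Id2*, *Smad9*, *Smad6* and *Smad7* were 0.96, 1.31, 0.75 and 0.54, and *Id3*, at 0.29, did not pass (limma adjusted p = 0.0676). *Smad6*, an inhibitory Smad, was at 33.6 and 33.8 CPM in WT and at 56.4, 65.7 and 49.9 CPM in transgenic pools 1, 2 and 3. Among transgenic pools it was highest in pool 2, where *Cxcl12* and *Ackr3* were lowest. *Smad7*, at 36.6, 39.7 and 38.8 CPM in the same order, and *Bmp2* were also highest in pool 2 but lowest in pool 1, and with 3 pools no relation can be tested. Pool 2 was also the transgenic pool furthest from WT over all genes. Its chi-square of reads per gene, 1 for sampling noise, was 8.07 and 7.31 against WT pools 1 and 2. The values were 5.43 and 4.12 for pool 1 and 4.40 and 3.93 for pool 3, so extremes in pool 2 are not particular to these genes.

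**Figure D4:**
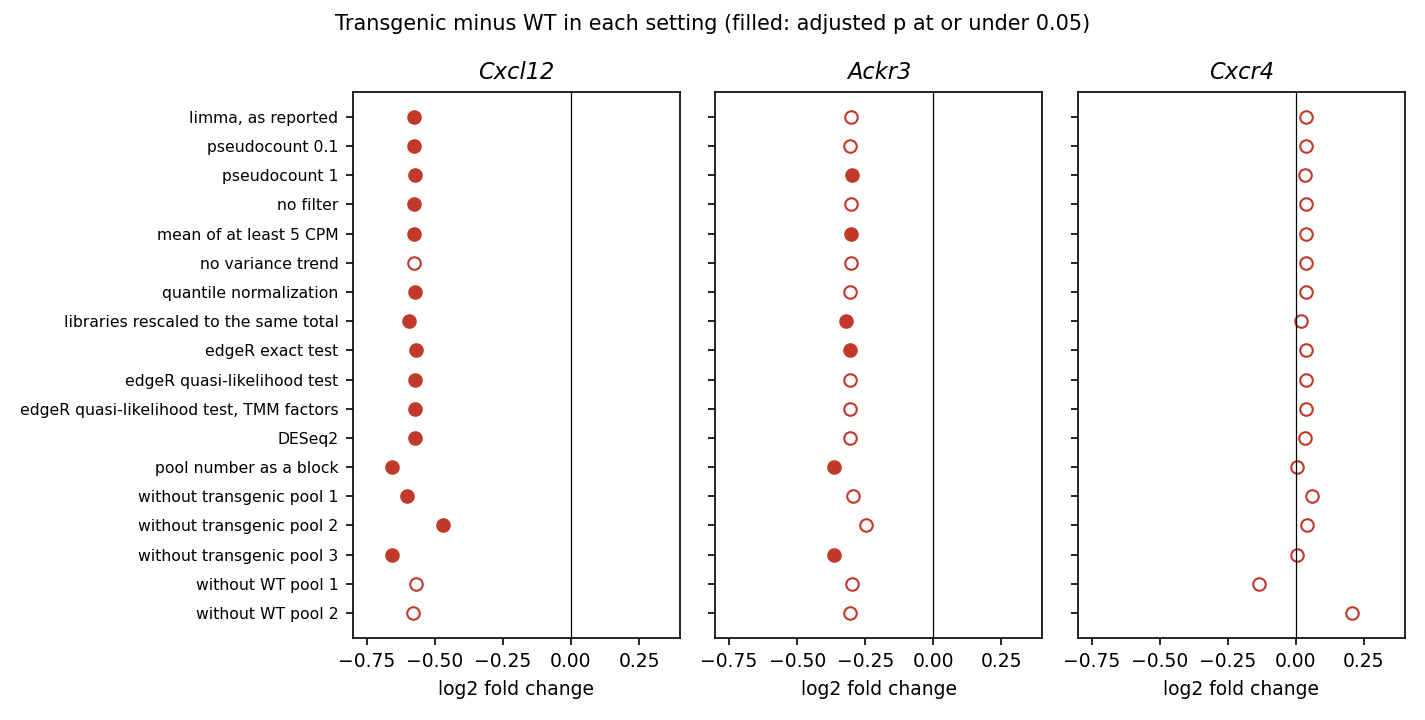
Log2 fold change, transgenic minus WT, of *Cxcl12*, *Ackr3* and *Cxcr4* as reported and in 17 other settings. Filled points have an adjusted p at or under 0.05, and DESeq2 gave no adjusted p for *Cxcr4*. *Cxcl12* was filled in 14 of the 17 and *Ackr3* in 6, all to the left of 0, while *Cxcr4* was open in every setting and lay on either side of 0.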

How the data were processed

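The labels and methods describe polyA RNA made into Illumina libraries and read as single-end reads. Per the labels, the authors used cutadapt, RSEM, Bowtie, Picard and edgeR over GRCm38. The authors deposited CPM values of 5 pools for 12857 genes, relative to a scaled library size, and 0 columns of values were left unused.

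Within each pool 100% of values were whole multiples of 1 step, within 0.01 read, which gave back the reads. The main test was limma 3.58.1 (R 4.3.3, variance trend, no covariates) on log2(CPM + 0.5) over all genes with at least 1 CPM in at least 2 libraries, which removed no gene, with Benjamini-Hochberg adjustment. Fold changes on this scale understate the change of low genes. Fold changes and intervals come from this fit. Tests were tested on simulated data first. As alternatives, edgeR 4.0.16 and DESeq2 1.42.0 were run on the recovered reads of all 5 pools, beside other pseudocounts, filters, scalings, a block and each pool left out. Tables were made with Python 3.11.15. A chi-square of reads gave 2.24 per gene between WT pools and 3.40 to 3.96 between transgenic pools, with 1 for sampling noise, so each pool was counted as 1 replicate.

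The members, lists and tests were chosen with earlier results of these data known. The genes named are the members, the paired list genes called by limma (up to 4 per list) with the 2 of highest level, and the 3 named genes most like each member. Other paired genes were named after their values were seen. Positions are those of RefSeq's GRCm38.p6 table, matched by symbol for all 3 members. Symbols came from the study's list for 405 identifiers, which included *Cxcl12*, and for *Cxcr4* and *Ackr3* from the definition of the members. No sequence was printed, because no table used here holds one. The authors' fold changes and p-values were not used.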

Additional observations from a re-analysis of the deposited data

How the results depend on the processing

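Among the 17 alternatives, the fit without a filter repeated the main fit, because the filter removed no gene. The quasi-likelihood test of edgeR gave the same values with its own scaling factors, so not every alternative is a separate check. *Cxcl12* was lower in all 17 alternatives and called in 14 of them, with log2 fold changes from -0.66 to -0.47. It was not called by limma without the variance trend (-0.58, adjusted p = 0.171), where limma called 10 genes in all, nor with either WT pool left out, where the remaining WT pool is assumed to vary like the transgenic pools. Leaving out 1 pool at a time gave ranges of -0.66 to -0.47 for *Cxcl12*, -0.36 to -0.25 for *Ackr3* and -0.13 to 0.21 for *Cxcr4*, which was called in 0 of the 16 alternatives that gave it an adjusted p. *Ackr3* was lower in all 17 and called in 6: with a pseudocount of 1 (-0.30), a mean of at least 5 CPM (-0.30), libraries rescaled to the same total (-0.32), edgeR's exact test (-0.31), the replicate block (-0.36) and without transgenic pool 3.

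The number of genes called, 362, became 10 without the variance trend, 232 with DESeq2, 655 with the replicate block and 43 to 464 with each pool left out, and was 43 and 45 without WT pools 2 and 1 and 226 without transgenic pool 2. Rescaling gave 251 lower and 125 higher genes, against 205 and 157. The labels give the pool numbers no meaning across genotypes, and deviations of pools 1 and 2 from their group means correlated across genes at -0.026 and -0.050, so the numbers were not taken to pair the pools. In the block fit transgenic pool 3 has no partner and does not enter the fold change. *Cxcr4*, at means of 13.6 CPM in WT and 13.9 CPM in transgenic pools, had few reads, which limits the precision of its difference. The causes of the changes reported here were not tested.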
